A study of Homo sapiens with 9 samples.

Results

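A set of 10 genes of extracellular matrix turnover were followed across the sequenced libraries: the matrix metalloproteinases MMP1, MMP2, MMP3, MMP7, MMP10, MMP13 and MMP14, and the tissue inhibitors of metalloproteinases TIMP1, TIMP2 and TIMP3. These are 10 of the 38021 genes in the count table and 10 of the 27 MMP and TIMP genes in it. They were found by gene name. MMP13 was picked for its rise in BMAL1-depleted cells and MMP1, MMP3, MMP7 and MMP10 because they are its neighbours on chromosome 11, with earlier results of these data known. The values of MMP13 are therefore a description, it has no test, and it is left out of every count of called genes. A read was found for 9 of the 10 genes, and TIMP3 had none in any library.

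The libraries were made from 786-O, an established human clear cell renal cell carcinoma (ccRCC) line without functional VHL, in which HIF2α is not degraded even when oxygen is normal. A lentiviral pLKO.1 vector, kept under puromycin, gave the cells a short hairpin RNA that was a control (shControl) or was directed against ARNT (shARNT) or BMAL1 (shBMAL1). ARNT is the usual partner of HIF2α, and BMAL1 is a related protein of the circadian clock. There were 9 libraries, 3 biological replicates per group by their labels, and nothing further says how the cultures were separated, so p-values measure the spread between these libraries. The 3 control libraries serve for both knockdowns. The labels do not say which BMAL1 hairpin was used, and an effect of one hairpin on other transcripts cannot be told apart from loss of its target.

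MMPs are zinc enzymes that cut proteins of the extracellular matrix. Most are secreted as inactive proenzymes, and a few, such as MMP14, sit in the cell membrane. Collagenases (MMP1, MMP13) open fibrillar collagen, the gelatinase MMP2 degrades denatured collagen and basement membrane collagen, stromelysins (MMP3, MMP10) cut many matrix proteins and other proenzymes, and matrilysin (MMP7) is a small enzyme of epithelial cells. TIMPs bind the active site of MMPs and block it, and TIMP2 also takes part in the activation of proMMP2 at the cell surface together with MMP14. In renal carcinoma, matrix turnover is studied for its part in invasion.

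The 5 members on chromosome 11 belong to a run of 9 MMP genes that spans 435 kb, from 102391239 to 102826461 (GRCh37), in the order MMP7, MMP20, MMP27, MMP8, MMP10, MMP1, MMP3, MMP12 and MMP13. All 9 are transcribed from the minus strand. RefSeq promoter sequences (assembly GRCh38.p14, 250 bases before to 50 bases after the start) were at hand for 5 members, MMP7, MMP10, MMP14, TIMP1 and TIMP3. The promoters of 2 of the neighbours of MMP13 are shown because MMP7 was called in the same direction as MMP13 moved and MMP10 was not called. Each is given 5′ to 3′ on the strand of the gene, and capitals mark the AP-1 motif TGANTCA, which Fos and Jun proteins bind, and after it the TATA box TATAAA.
MMP7, chr11:102401429-102401728 (GRCh37), minus strand: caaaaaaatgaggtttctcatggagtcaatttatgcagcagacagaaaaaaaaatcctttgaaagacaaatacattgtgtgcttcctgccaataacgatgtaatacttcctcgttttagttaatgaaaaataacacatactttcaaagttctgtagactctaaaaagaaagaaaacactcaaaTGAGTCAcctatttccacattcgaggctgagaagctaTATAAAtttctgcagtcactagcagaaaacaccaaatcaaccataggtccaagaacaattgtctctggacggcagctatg
MMP10, chr11:102651310-102651609 (GRCh37), minus strand: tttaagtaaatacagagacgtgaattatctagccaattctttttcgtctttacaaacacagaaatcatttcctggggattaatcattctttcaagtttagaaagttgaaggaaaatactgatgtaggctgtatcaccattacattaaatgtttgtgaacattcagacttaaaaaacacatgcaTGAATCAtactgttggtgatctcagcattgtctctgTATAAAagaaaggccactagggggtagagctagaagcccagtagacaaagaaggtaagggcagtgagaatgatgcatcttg

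The promoters of MMP7 and MMP10 both held an AP-1 motif whose first base lay 67 bases before the start. A TATA box began 30 bases before the start in MMP7 and 31 in MMP10. Searched on both strands, the AP-1 motif was in 7.71% of 35116 RefSeq promoters of this length and TATAAA in 11.5%. The E-box CACGTG, which BMAL1 binds with CLOCK, was in 7.26% of all promoters and in none of the 5. The core of the hypoxia response element, ACGTG, was found once each in MMP10 (233 bases before the start), MMP14 (96) and TIMP1 (231), and in 21.4% of all promoters. Its other form, GCGTG, was in TIMP1 (36 bases before the start) and TIMP3 (213), and in 36.5% of all promoters. The letters of ACGTG are also part of the E-box. A site of the ETS type, AGGAAG, was found in MMP7 (169 and 145 bases before the start) and in TIMP1 (87), and in 33.6% of all promoters, and the RUNX motif AACCACA in TIMP1, and in 4.27%. These are matches of letters and do not show binding.

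Library totals ran from 33793067 to 35444757 reads. The labels were checked on the targeted genes. Normalised counts (mean ± SD, n = 3) of ARNT were 2352 ± 184 under shControl, 1225 ± 23.2 under shARNT and 2014 ± 76.2 under shBMAL1, and those of BMAL1 were 761 ± 31.9, 633 ± 57.8 and 326 ± 29.2. Each hairpin thus lowered its own target most, and the other target was also lower, by 0.23 and 0.26 on the log2 scale (adjusted p = 0.0187 for ARNT in shBMAL1 and 0.0293 for BMAL1 in shARNT). The first of these calls was lost without shControl replicate 2 or shBMAL1 replicate 2 (adjusted p = 0.162 and 0.109), the other without shControl replicate 2 or shARNT replicate 3 (adjusted p = 0.15 and 0.214). These are RNA levels. For protein, the paper describes slightly more ARNT after loss of BMAL1, and slightly more BMAL1 after loss of ARNT. All 8 markers of renal carcinoma cells were present, with group means from 602 to 97978 normalised counts. By the threshold given below, 5 were called in shARNT (3 higher, 2 lower) and 5 in shBMAL1 (2 higher, 3 lower). In shBMAL1 against shARNT 7 were called (3 higher, 4 lower). The shares called over all genes tested were 35.4%, 36.8% and 36.3%. Of 12 markers of other cell types, 8 stayed under a mean of 10 normalised counts in each group, among them PTPRC of leukocytes, VWF of endothelium and COL3A1 of fibroblasts, and UMOD of the renal tubule had no read. CSF1R (440, 289 and 239 in shControl, shARNT and shBMAL1), LUM (90.9, 75.4 and 188) PDGFRA (4.02, 9.51 and 36.5) and CD14 (9.72, 10.8 and 10.9) passed it in at least 1 group. The summed level of the 12 ran from 513 to 614 in shControl, 370 to 420 in shARNT and 457 to 503 in shBMAL1, and its part in the results was not tested. The share of mitochondrial reads was 6.21% for shControl, 8.06% for shARNT and 9.33% for shBMAL1.

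Calls were made with DESeq2 where the adjusted p was under 0.1, the threshold of the study, with two-sided p-values adjusted over all genes tested. Of all genes tested, 35.4% were called in shARNT against shControl, 16.5% higher and 19% lower. In shBMAL1 against shControl 36.8% were called, 17.4% higher and 19.4% lower. In shBMAL1 against shARNT, the direct comparison, 36.3% were called, 17.8% higher and 18.6% lower. Of the members without MMP13, 5 of the 7 tested were called in shARNT (3 higher, 2 lower), 6 of 7 in shBMAL1 (4 higher, 2 lower) and 6 of 8 in the direct comparison (4 higher, 2 lower). The members had been chosen by name with results known, so these counts are a description. Since libraries are from bulk RNA, more cells that make a transcript and more RNA per cell cannot be told apart.

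**Figure D1:**
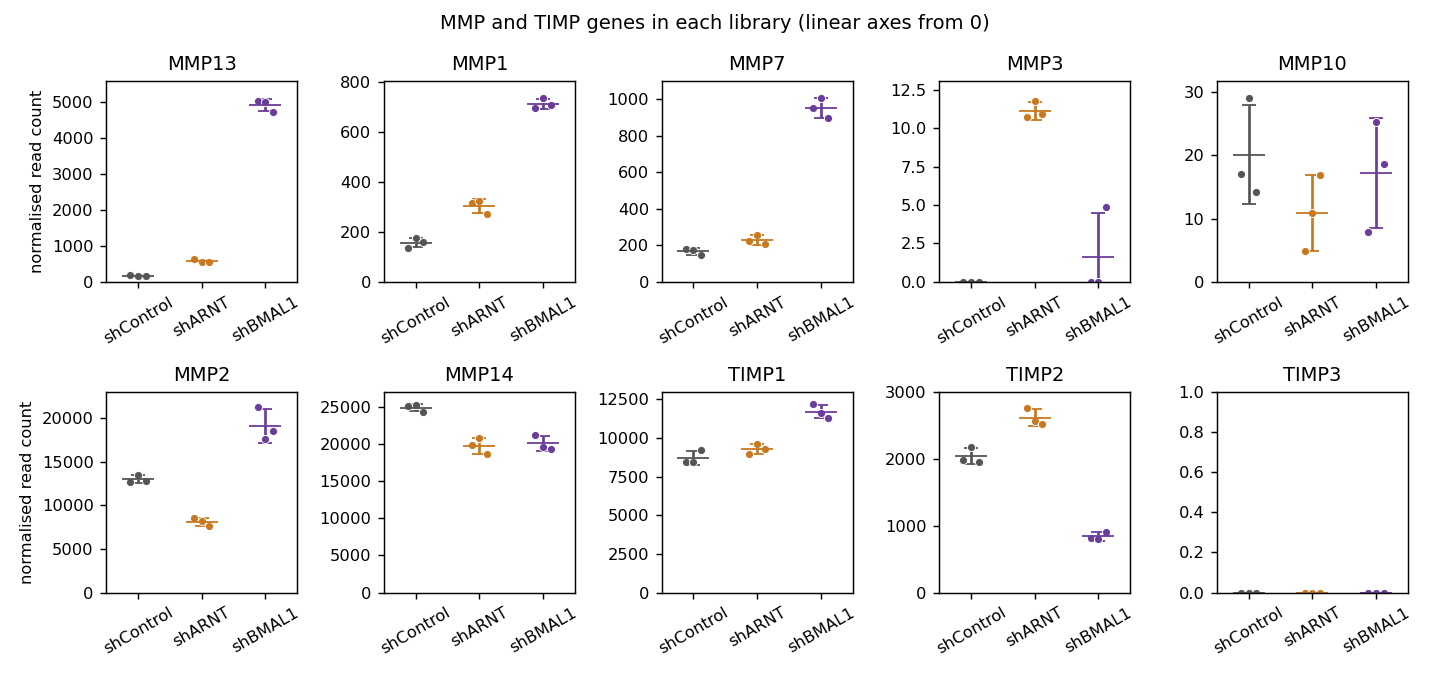
Normalised read counts (linear axes from 0) of the 10 members in the 9 libraries; dots are libraries, horizontal bars the group mean and error bars the SD (n = 3). MMP13, MMP1 and MMP7 were highest in every shBMAL1 library, MMP2 and TIMP2 moved in opposite directions in each knockdown, and TIMP3 had no reads.

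Among members with reads in shControl, the interstitial collagenase MMP13 had the largest log2 difference in each knockdown. Its normalised counts were 184, 165 and 162 in the shControl libraries, 621, 558 and 551 in shARNT, and 5017, 4998 and 4736 in shBMAL1. The 3 groups did not overlap. On the log2 scale MMP13 was 1.76 (SE 0.13) above shControl in shARNT and 4.85 (SE 0.10) in shBMAL1, a ratio of 3.39 and 28.8, and 3.09 (SE 0.08) above shARNT in shBMAL1. As a share of all MMP reads (mean ± SD, n = 3), MMP13 took 0.422% ± 0.0304 under shControl, 1.85% ± 0.116 under shARNT and 10.3% ± 0.573 under shBMAL1.

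MMP1, the other collagenase, starts 158 kb from the start of MMP13. Its counts were 137, 174 and 159 in shControl, 316, 321 and 269 in shARNT, and 693, 734 and 706 in shBMAL1. The groups stood in the same order as for MMP13, again without overlap. The rise of MMP1 on the log2 scale was 0.95 in shARNT (SE 0.16, adjusted p = 2.94e-08). It was 2.18 in shBMAL1 (SE 0.13, adjusted p = 1.25e-60). The difference between the knockdowns was 1.23 (SE 0.12, adjusted p = 7.83e-25).

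MMP7, at the far end of the run and 425 kb from MMP13, was counted 182, 173 and 147 times under shControl, 224, 256 and 205 times under shARNT, and 951, 1004 and 899 times under shBMAL1, after normalisation. Every shBMAL1 library was well above the other 6. MMP7 rose by 2.51 in shBMAL1 (SE 0.12, adjusted p = 1.02e-89), a ratio of 5.68, and was 2.06 higher than in shARNT (SE 0.12, adjusted p = 2.39e-66). The rise in shARNT was small, 0.45 (SE 0.17, adjusted p = 0.0265). It was no longer called without shControl replicate 3 (0.37, adjusted p = 0.151) or without shARNT replicate 2 (0.36, adjusted p = 0.195).

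MMP10, which lies between MMP7 and MMP1 and 175 kb from MMP13, did not pass the test in any comparison. Its counts were 17.1, 29 and 14.2 in shControl, 4.87, 10.8 and 16.9 in shARNT, and 7.94, 25.2 and 18.6 in shBMAL1, so the groups overlapped. The log2 difference was -0.89 for shARNT (SE 0.60, adjusted p = 0.285), and for shBMAL1 -0.22 (SE 0.55, adjusted p = 0.82). At these counts only a large change could have been detected. The AP-1 motif and TATA box of its promoter, shown above with those of MMP7, lie at nearly the same positions.

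MMP3, the neighbour nearest to MMP13 among the members at 112 kb, was close to the limit of detection. It had no reads in the 3 shControl libraries, normalised counts of 10.7, 11.8 and 10.9 in shARNT, and 0, 0 and 4.9 in shBMAL1. All shARNT libraries were above all others. On the normalised scale and against a floor of 3 reads per control library, MMP3 was at least 3.69-fold higher in shARNT than in shControl. DESeq2 left it out of the adjusted test of both knockdowns against shControl because of its low mean. It was called in shARNT by edgeR's quasi-likelihood test (adjusted p = 0.00018). In the direct comparison MMP3 was lower in shBMAL1 than in shARNT by a log2 difference of -2.76 (SE 1.06, adjusted p = 0.0333), but this was lost without shBMAL1 replicate 1 (adjusted p = 0.128) or replicate 2 (adjusted p = 0.132). Without shARNT replicate 1, 2 or 3 the gene had no adjusted p, and without shBMAL1 replicate 3, the only shBMAL1 library with reads, the difference was -5.92 (adjusted p = 0.00318), a value fitted against a group at 0. The call was thus made in 1 of 6 such fits. MMP3 and MMP10 are close copies, and how reads shared by them were counted was not stated, so the values of both are uncertain. The pseudogene WTAPP1 on the opposite strand overlaps MMP1, MMP3 and MMP10 and has no row of its own.

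The neighbours of MMP13 therefore did not all move with it. MMP1 and MMP7 rose in both knockdowns, more in shBMAL1, MMP10 was not called, and MMP3 had its reads mainly in shARNT. The call of MMP7 in shARNT was lost without shControl replicate 3 or without shARNT replicate 2. The other 4 genes of the run were silent or nearly so. MMP12, a macrophage elastase, and MMP27 had no reads in any library. MMP8, the neutrophil collagenase, had at most 7 reads in a library and MMP20, an enamel enzyme, at most 3.

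Genes on both sides of the run were described beside it, with start sites up to 2654 kb from that of MMP13. Of 22 flanking genes with a row, 5 of the 13 tested were called in shARNT (3 higher, 2 lower) and 4 of 15 in shBMAL1 (3 higher, 1 lower), with a median log2 difference of 0.07 and 0.11 beside 0.00 and 0.02 over all genes tested. The shares called over all genes tested were 35.4% and 36.8%. TMEM123, next to MMP7, fell by 0.46 in shARNT (SE 0.06, adjusted p = 1.44e-14) and differed by 0.11 in shBMAL1 (adjusted p = 0.241), or by 0.16 without shBMAL1 replicate 3 (adjusted p = 0.0831). The apoptosis inhibitors BIRC2 and BIRC3 differed by 0.06 and -0.08 in shBMAL1 (adjusted p = 0.631 and 0.529), and BIRC3 rose by 0.23 in shARNT (adjusted p = 0.00733). YAP1, the effector of the Hippo pathway, rose by 0.18 in shARNT and 0.24 in shBMAL1 (adjusted p = 0.033 and 0.00601). Its call in shARNT was lost without shControl replicate 1 or 3 or shARNT replicate 1 (adjusted p from 0.131 to 0.192). On the other side, DCUN1D5, whose start is 136 kb from that of MMP13, differed by 0.06 and -0.12 (adjusted p = 0.667 and 0.392). DYNC2H1, a dynein of cilia at 154 kb, rose by 0.60 in shBMAL1 (SE 0.11, adjusted p = 1.25e-07) and differed by 0.07 in shARNT (adjusted p = 0.701). Farther out, PDGFD was not called (0.73 and 0.61, adjusted p = 0.317 and 0.483) except in shARNT without shControl replicate 2 (1.38, adjusted p = 0.0872), and CASP4 fell by 0.21 in shBMAL1 (adjusted p = 0.0167).

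**Figure D2:**
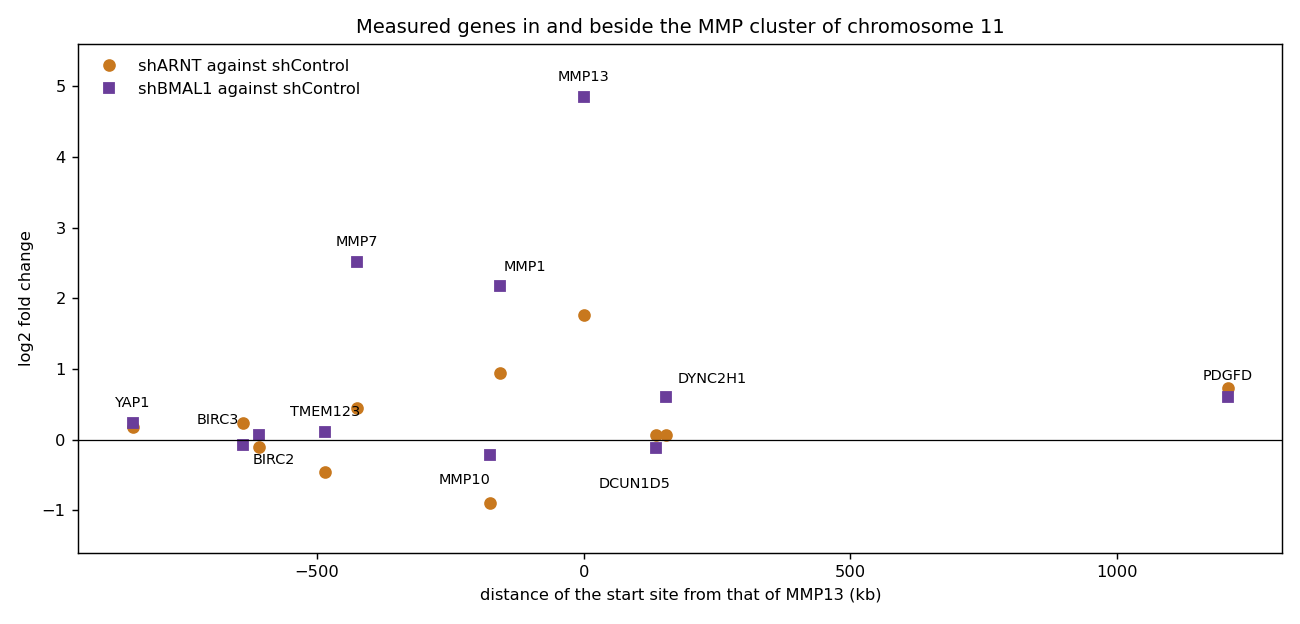
Log2 fold change against shControl (vertical axis, point estimates) by distance of the start site from that of MMP13 in kb (horizontal axis) for measured genes in the run and the nearest measured genes beside it; circles are shARNT and squares shBMAL1, and MMP3, with no control reads, and CASP4, farther away, are not drawn. MMP13, MMP1 and MMP7 stand out at 4.85, 2.18 and 2.51 in shBMAL1, and genes on both sides lie between -0.12 and 0.61 in shBMAL1 and between -0.46 and 0.73 in shARNT.

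MMP2, a gelatinase on chromosome 16, moved in opposite directions in the knockdowns. Its counts were 12662, 13542 and 12824 in shControl, 8525, 8212 and 7638 in shARNT, and 21266, 17584 and 18519 in shBMAL1. No group overlapped another. With shARNT, MMP2 fell by 0.68 (SE 0.05, adjusted p = 7.09e-33), and it rose by 0.55 with shBMAL1 (SE 0.07, adjusted p = 3.17e-12). In the direct comparison it was 1.23 higher in shBMAL1 (SE 0.08, adjusted p = 2.46e-55), as large a log2 difference as that of MMP1. Antisense transcripts overlap MMP2 and were not counted separately.

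MMP14, the membrane enzyme that activates proMMP2 (chromosome 14), was lower in each knockdown. Its counts were 25210, 25257 and 24348 in shControl, 19894, 20845 and 18629 in shARNT, and 21290, 19613 and 19400 in shBMAL1. All 6 knockdown libraries were below all controls. With shARNT, MMP14 fell by 0.33 (SE 0.05, adjusted p = 2.84e-09), and with shBMAL1 it fell by 0.31 (SE 0.06, adjusted p = 2.74e-06). The direct difference was 0.02 (SE 0.07, adjusted p = 0.861).

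TIMP2, the inhibitor that pairs with MMP14 and MMP2, mirrored MMP2. Its counts were 1984, 2179 and 1958 in shControl, 2762, 2560 and 2520 in shARNT, and 811, 794 and 911 in shBMAL1. The 3 groups did not overlap. With shARNT, TIMP2 rose by 0.36 (SE 0.07, adjusted p = 1.62e-06). With shBMAL1 it fell by 1.28 (SE 0.09, adjusted p = 1.22e-45), and the direct difference was -1.64 (SE 0.08, adjusted p = 9e-82). It was the only member that rose in shARNT and fell in shBMAL1, and MMP2 the only one that did the reverse.

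TIMP1, the most abundant inhibitor here (chromosome X), rose in shBMAL1. Its counts were 8419, 8465 and 9250 in shControl, 8950, 9626 and 9298 in shARNT, and 12172, 11617 and 11309 in shBMAL1. The shARNT libraries overlapped the controls and the shBMAL1 libraries were above both. TIMP1 rose by 0.42 in shBMAL1 (SE 0.06, adjusted p = 1.02e-09) and by 0.33 against shARNT (SE 0.06, adjusted p = 8.66e-07). The difference of 0.10 in shARNT was not called (SE 0.06, adjusted p = 0.189) but was without shControl replicate 3 (0.14, adjusted p = 0.0548). TIMP3, an inhibitor bound to the matrix, had 0 reads in all 9 libraries, which allows up to 3 counts per library. TIMP1, TIMP2 and TIMP3 overlap other genes, among them SYN1, CEP295NL and SYN3, and whether the counting used strand is not known.

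**Figure D3:**
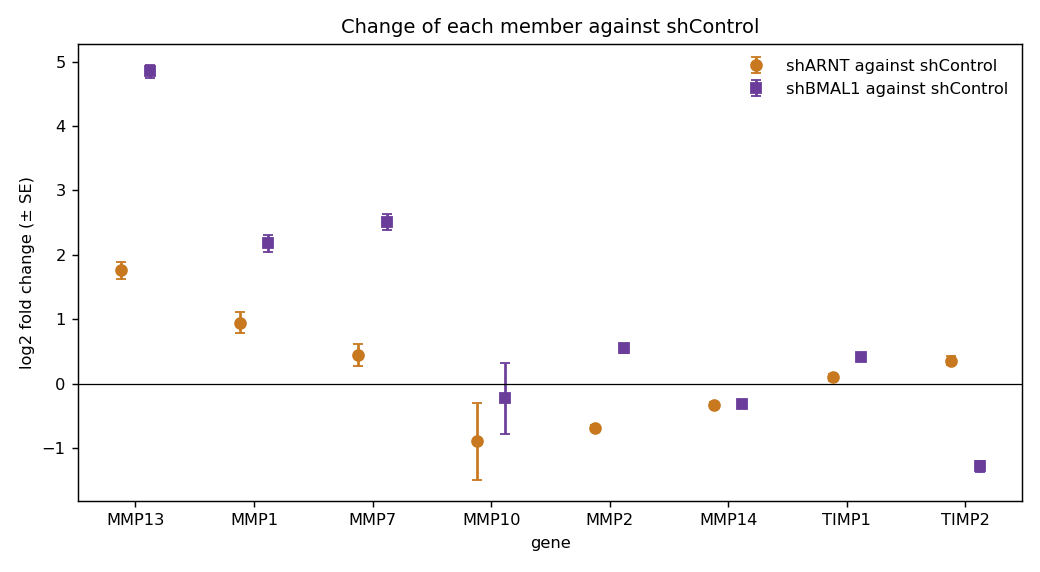
Log2 fold change of 8 members against shControl with SE, for shARNT (circles) and shBMAL1 (squares); MMP3 and TIMP3 are not drawn because they had no reads in shControl. MMP2 and TIMP2 lie on opposite sides of 0 in the 2 knockdowns, and MMP14 lies below 0 in both.

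Levels of different genes were compared as RPKM, that is, reads per kb of transcript scaled to the library total. In shControl the order was TIMP1 (323 ± 16.6), MMP14 (192 ± 4.89), MMP2 (105 ± 2.84), TIMP2 (15.9 ± 0.829), MMP7 (4.26 ± 0.496), MMP1 (2.26 ± 0.244), MMP13 (1.79 ± 0.147) and MMP10 (0.325 ± 0.124), as mean ± SD of 3 libraries. The ranges of neighbours in this order did not overlap, and those of MMP1 and MMP13 were nearest, at 2 to 2.49 and 1.69 to 1.96. In shARNT, MMP13 (6.16 ± 0.412) and MMP7 (5.92 ± 0.683) overlapped, and MMP1 was at 4.44 ± 0.424. MMP10 (0.179 ± 0.0989) and MMP3 (0.177 ± 0.00917) overlapped there as well. In shBMAL1, MMP2 (159 ± 13.5) and MMP14 (158 ± 5.55) overlapped behind TIMP1 (444 ± 9.44). MMP13 came next at 52.9 ± 1.24, above MMP7 (24.8 ± 1.35), MMP1 (10.5 ± 0.429) and TIMP2 (6.71 ± 0.576). MMP13 thus went from below MMP1 in shControl to above TIMP2 in shBMAL1.

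**Figure D4:**
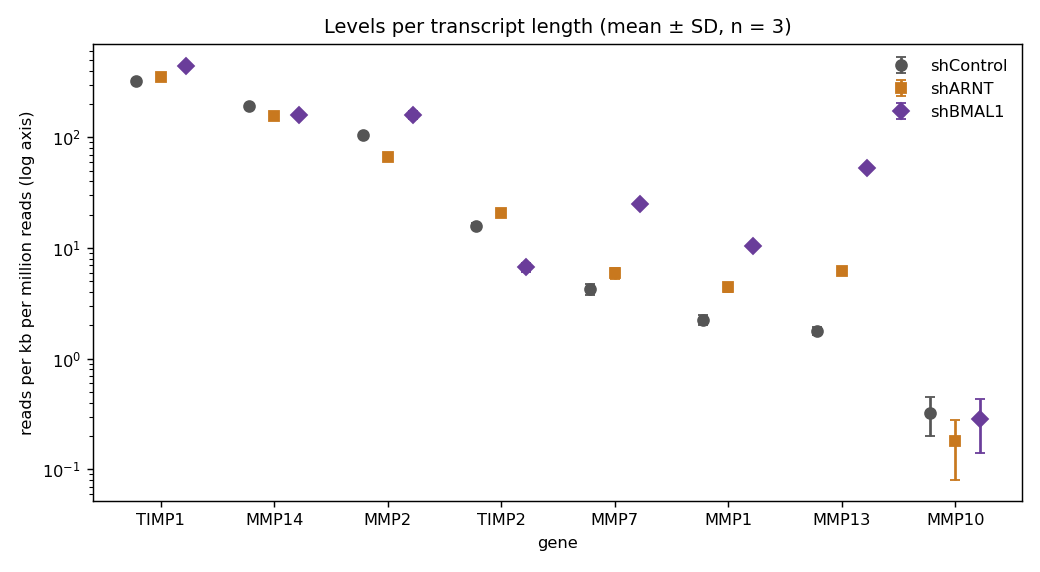
RPKM, reads per kb of transcript scaled to the library total (log axis, mean ± SD, n = 3) of 8 members in shControl, shARNT and shBMAL1, in the order of their level in shControl. MMP13 is at 1.79 in shControl and 52.9 in shBMAL1, and TIMP2 falls from 15.9 to 6.71.

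Summed over the whole MMP family, levels in RPM (reads scaled to the library total) were 1151 ± 24.1 under shControl, 904 ± 47.3 under shARNT and 1392 ± 65 under shBMAL1. The family's sum is mostly MMP14 and MMP2. It also holds MMP13, which was picked for its rise in shBMAL1. MMP13 made up 0.422% of the sum under shControl, 1.85% under shARNT and 10.3% under shBMAL1. For the TIMP family the sums were 308 ± 10.6, 346 ± 7.6 and 367 ± 5.59. The collagenases MMP1 and MMP13 together went from 9.31 ± 0.233 to 25.5 ± 1.7 and 164 ± 3.74. The groups did not overlap in any of the 3 sums (SD, n = 3 each). Since MMP13 was picked by its values, this is only a description for the MMP and collagenase sums.

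Of the 17 family genes that were not members, 2 of the 9 tested were called in shARNT (1 higher, 1 lower), 4 of 12 in shBMAL1 (3 higher, 1 lower) and 9 of 11 in the direct comparison (5 higher, 4 lower). Over all genes tested, 35.4%, 36.8% and 36.3% were called. Without shARNT replicate 2 the direct count was 5 of 10 tested (3 higher, 2 lower). Counts of MMP9, the other gelatinase, were 92.8 ± 2.9 under shControl, 51.8 ± 6.9 under shARNT and 151 ± 32.6 under shBMAL1. Like MMP2, it fell in shARNT (-0.84, adjusted p = 0.00585) and rose in shBMAL1 (0.70, adjusted p = 0.006), where the call was lost without shBMAL1 replicate 1 (0.51, adjusted p = 0.114). MMP11, a stromelysin processed by furin, rose by 1.09 in shBMAL1 (adjusted p = 0.000445), and MMP19 by 0.58 (adjusted p = 0.00613). MMP24, a membrane type enzyme, fell by 0.33 in shBMAL1 (adjusted p = 0.00214). MMP15, another membrane type enzyme that was singled out after its values were seen, stood at 81.5, 85 and 90 under shControl, 246, 244 and 225 under shARNT, and 99.3, 78.6 and 88.1 under shBMAL1. It rose by 1.48 in shARNT (SE 0.18, adjusted p = 5.17e-15), differed by 0.05 in shBMAL1 (adjusted p = 0.91), and was 1.43 lower there than in shARNT (log2 -1.43, adjusted p = 1.96e-13).

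Among 15 proteases that activate MMPs, 3 of the 8 tested were called in shARNT, all lower, and 4 of 10 in shBMAL1 (1 higher, 3 lower). These counts are near the shares called over all genes tested, 35.4% and 36.8%. The plasminogen activator PLAU fell by 0.86 in shARNT (adjusted p = 2.89e-33) and by 1.30 in shBMAL1 (adjusted p = 3.44e-67). PLAT, the tissue type activator, fell by 1.24 in shBMAL1 (adjusted p = 8.45e-06). FURIN, which activates MMP14, fell by 0.23 and 0.74 (adjusted p = 0.000814 and 8.92e-19), and the related convertase PCSK6 rose by 1.64 in shBMAL1 (adjusted p = 2.47e-14). Of 5 other inhibitors of MMPs, 1 of the 3 tested was called in each knockdown, beside 35.4% and 36.8% of all genes tested. It was TFPI2, which rose by 0.18 in shARNT and 0.44 in shBMAL1 (adjusted p = 0.0503 and 4.67e-11). In shARNT it was not called with a replicate block (adjusted p = 0.396), without shControl replicate 1 or 2 (adjusted p = 0.152 and 0.183), or without shARNT replicate 2, where it differed by 0.07 (adjusted p = 0.463). By edgeR's quasi-likelihood test, 2 of the 3 inhibitors tested were called in shBMAL1 (1 higher, 1 lower).

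Of 9 genes for docking, induction and clearance of MMPs, 3 of 8 tested were called in shARNT (1 higher, 2 lower) and 6 of 8 in shBMAL1 (2 higher, 4 lower). Over all genes tested the shares called were 35.4% and 36.8%. CD44, which holds MMP9 at the cell surface, fell by 1.21 in shBMAL1 (adjusted p = 2.34e-32) and differed by 0.04 in shARNT (adjusted p = 0.663). CLDN1 fell by 1.01 in shBMAL1 (adjusted p = 4.71e-29), and the proteoglycan SDC1 fell by 0.16 and 0.50 (adjusted p = 0.0495 and 1.57e-11). The call of SDC1 in shARNT was lost without shControl replicate 3 or shARNT replicate 1 (adjusted p = 0.227 and 0.126) and without shARNT replicate 3 (-0.11, adjusted p = 0.287). The integrin subunit ITGB3 rose by 0.43 in shARNT and 0.35 in shBMAL1 (adjusted p = 2.02e-12 and 1.83e-05).

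Of 17 transcription factors known at MMP promoters, 12 of 17 were called in shARNT (3 higher, 9 lower) and 13 of 17 in shBMAL1 (1 higher, 12 lower), with a median log2 difference of -0.20 and -0.36 beside 0.00 and 0.02 over all genes tested. The shares called over all genes tested were 35.4% and 36.8%. The 1 higher call in shBMAL1 was JUNB (0.21), named here after its values were seen. It was lost with TMM size factors (adjusted p = 0.102), without independent filtering (0.122), with a replicate block (0.115), and when any 1 library other than shControl replicate 3 was left out (0.133 to 0.417). Without shControl replicate 3, 2 factors were higher and 10 lower, and JUNB differed by 0.34 (adjusted p = 0.00178). FOSL1, a Fos family partner in AP-1, fell by 0.96 in shARNT (adjusted p = 5.44e-12) and fell by 1.39 in shBMAL1 (adjusted p = 5.06e-43). ETV4 fell by 0.56 and 2.04 (adjusted p = 0.000114 and 1.85e-25), ETS1 by 0.36 and 0.74 (adjusted p = 9.5e-07 and 3.39e-18) and ETV5 by 0.20 and 0.69 (adjusted p = 0.0191 and 2.15e-15), all of the ETS family. The call of ETV5 in shARNT was lost without shControl replicate 3 or shARNT replicate 3 (adjusted p = 0.142 and 0.117). These 4 factors had the largest changes in shBMAL1 of those called. They were lower in the libraries in which MMP13, MMP1 and MMP7 were higher. FOSB, also of the Fos family and named after its values were seen, was called higher in shARNT, by 0.89. That call was lost without shControl replicate 1 or shARNT replicate 2 (adjusted p = 0.103 and 0.1). Whether any of these factors acted on the MMP genes was not tested.

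**Figure D5:**
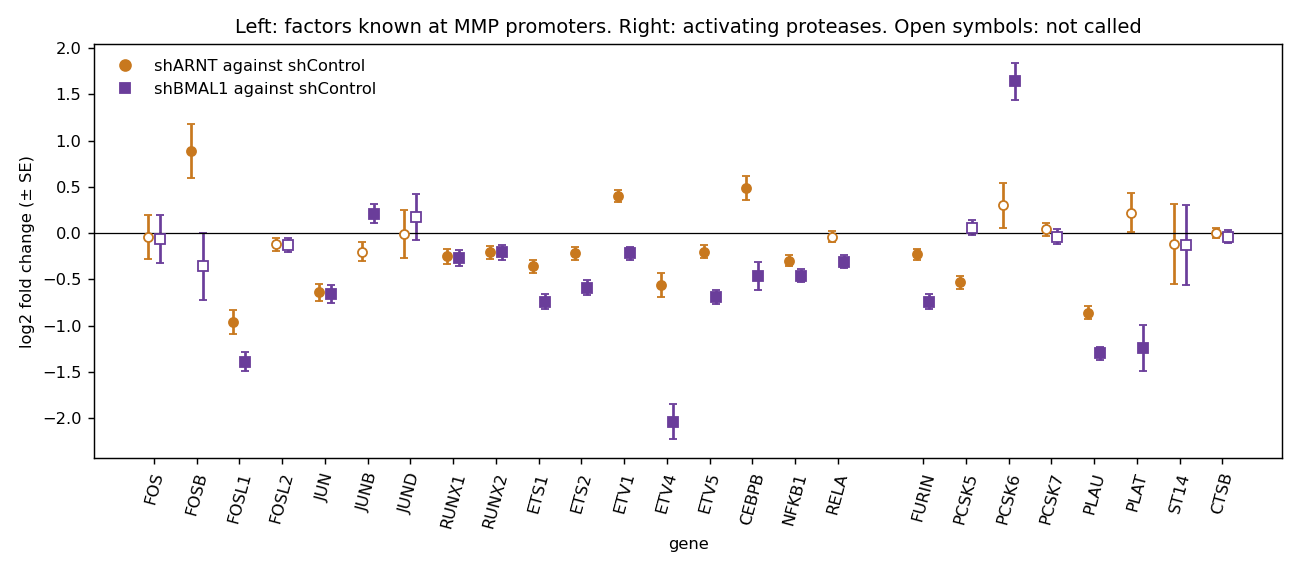
Log2 fold change with SE against shControl for 17 transcription factors known at MMP promoters (left) and 8 activating proteases tested in both knockdowns (right); circles are shARNT, squares shBMAL1, and open symbols were not called. Most factors lie below 0 in shBMAL1, ETV4 lowest at -2.04, while PCSK6 is at 1.64.

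TIMPs also block enzymes of the ADAM and ADAMTS families, which shed membrane proteins and cut proteoglycans. Of 19 such genes, 8 of the 17 tested were called in shARNT (2 higher, 6 lower) and 11 of 17 in shBMAL1 (5 higher, 6 lower). The shares called over all genes tested were 35.4% and 36.8%. Without shControl replicate 3 the shBMAL1 count was 6 of 17 (2 higher, 4 lower). ADAMTS10 had the pattern of MMP2, with a fall of 1.61 in shARNT and a rise of 1.51 in shBMAL1 (adjusted p = 1.96e-05 and 1.04e-11). ADAMTS15 rose in each, by 1.16 and 1.59 (adjusted p = 9.26e-20 and 2.98e-37). ADAMTS2, which trims procollagen, fell by 1.57 and 1.95 (adjusted p = 2.39e-07 and 2.67e-10). ADAMTS14 rose by 1.00 in shBMAL1 (adjusted p = 0.0225). That call was lost with a replicate block (adjusted p = 0.1) and without shControl replicate 3 or shBMAL1 replicate 1 or 3 (adjusted p from 0.118 to 0.124).

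The genes most like MMP13 over the 3 groups were sought among 12936 genes, by the Euclidean distance between centred group means of log2 normalised counts. The nearest were AQP3 (0.25), ITIH2 (0.45), LBP (0.52), LOC101927960 (1.11) and SLC2A2 (1.15). AQP3, a water and glycerol channel, stood at 25.5 ± 2.34 under shControl, 73.2 ± 27.4 under shARNT and 637 ± 80.3 under shBMAL1. The search started from the values for which MMP13 was picked, and all 5 genes had shControl means of 25.5 or less, so they reached the required mean of 50 over the 9 libraries through their high shBMAL1 libraries. The likeness rests on 3 group means and is a description.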

How the data were processed

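RNA-seq of 9 libraries of 786-O cells was analysed, 3 per group, with groups and replicate numbers from the sample labels. The values were estimated counts deposited by the authors, as total reads per gene. The study's methods name SeqMan NGen for alignment of paired-end reads to GRCh37 and ArrayStar for counting; the submitters' processing notes name hg38 and STAR instead, so the build behind the counts is not settled. The gene annotation and strand setting of the counting are not given in the sources used here.

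A value of 0.009 stood in for 0 and was set to 0, fractional values were rounded, and rows of one gene name were added, which left 38021 genes. No 2 libraries were copies: chi-square per degree of freedom was 8.64 or more within groups. Each comparison was fitted with DESeq2 1.42.0 (R 4.3.3) on its 6 libraries, with its Wald test; p-values were adjusted by Benjamini-Hochberg after independent filtering at 0.1. Normalised counts used size factors over all 9 libraries; RPKM and RPM were computed from the raw counts and library totals, RPKM with the length of 1 transcript per gene. Positions are from GENCODE on GRCh37, and promoter positions from an exact match of the RefSeq sequence, each found 1 time.

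Members and lists were chosen with earlier results of these data known. Of each list except the renal carcinoma markers, called genes whose normalised count averaged 10 or more in a group were named, at most 4 by absolute log2 fold change in shBMAL1, with the 4 nearest measured genes on each side of the run. Nearest genes needed a mean of at least 50. Alternatives were edgeR 4.0.16, TMM size factors, a filter of 10 counts in 3 libraries, no independent filtering, 1 fit of all 9 libraries, a replicate block, an adjusted p under 0.05, a change of at least 1.5-fold, and leaving out each library.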

Additional observations from a re-analysis of the deposited data

How the results depend on the processing

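Of 84 recomputed counts of called members and of called genes of the whole family, 80 stayed within 1.5 times the value reported. The other 4 came from asking for a change of at least 1.5-fold, by construction a stricter call: 2 members and 4 family genes in shARNT, and 3 members and 5 family genes in shBMAL1, in place of 5, 7, 6 and 10. Some counts of smaller or other lists moved more when 1 library was left out: ADAM and ADAMTS genes in shBMAL1 from 11 to 6 (without shControl replicate 3), and family genes that were not members in the direct comparison from 9 to 5 (without shARNT replicate 2). MMP3 was added in shARNT by edgeR, by the filter of 10 counts in 3 libraries and without independent filtering, which gave 6 members. Of the fold changes, MMP10 in shARNT ranged from -1.35 to -0.52 when single libraries were left out, and in shBMAL1 from -0.60 to 0.14 (adjusted p 0.579 to 0.914), turning positive without shControl replicate 2 (0.14) or shBMAL1 replicate 1 (0.12), and the direct difference of MMP14 ranged from -0.02 to 0.06, negative without shARNT replicate 3 or shBMAL1 replicate 1. None of these 3 differences was called when a library was left out. Low counts limit MMP3 and MMP10.

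The labels number the replicates of each group, but the numbers did not pair the libraries: deviations of same-numbered libraries from their group means correlated at -0.154 to 0.105. With the replicate block, 5 members were called in shARNT, 6 in shBMAL1 and 6 in the direct comparison, and 7, 10 and 12 family genes, in place of 7, 10 and 15, so 3 fewer family genes were called in the direct comparison. Without single libraries the direct family count ranged from 10 to 12.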
